A study of Homo sapiens with 3 samples.

Results

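The aminoacyl-tRNA synthetases are the enzymes that join each amino acid to its tRNA, and they were taken here by gene name: 20 that serve the cytosol and 16 that serve mitochondria, the latter marked by the suffix 2. Of these 36 genes, 31 were listed in all 3 footprint tables, 17 cytosolic and 14 mitochondrial, among 8812 transcripts listed in all 3. FARSA, GARS, TARS, IARS2 and YARS2 were not analysed here. The read minimum set for testing, taken on coding sequence (CDS) reads, was reached by 29 of the 31; FARS2 and PARS2 were below it.

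Ribosome profiling, in which the stretches of mRNA shielded by ribosomes from nuclease digestion are sequenced, was performed in HEK293T cells, an immortalized human embryonic kidney line that carries a viral T antigen. The Untreated group had 2 libraries, A and B, collected at 24 hours with 0 µg/mL of drug, and the G418 group had 1 library, A, after 24 hours with 500 µg/mL of G418 (geneticin), an aminoglycoside that binds the decoding centre of the ribosome and lets it read through stop codons. All cells were lysed with cycloheximide present. The tables do not separate a change in mRNA level from a change in ribosomes per mRNA, and every comparison below uses the same 2 untreated libraries.

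The libraries held between 5857230 and 9477972 assigned reads, of which the CDSs of the transcripts listed for each library took 3838477 to 6288190. Of 6 genes used as markers of this line, LHX1, HOXD11, NEFM and NEFL were listed in all 3 libraries, PAX2 in Untreated B only and HOXA10 in none. Of 5 markers of other cells, the fibroblast collagen COL1A1 was listed in all 3 libraries, at 34.8 and 46.7 RPM (reads scaled to library total) untreated and 37.6 RPM in G418, the erythroid globin HBA1 in Untreated B and G418, and PTPRC, ALB and KRT5 in none.

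The synthetases fall into class I and class II, which have unrelated catalytic folds. In animal cells, 8 of the cytosolic enzymes examined (DARS, EPRS, IARS, KARS, LARS, MARS, QARS and RARS) are held in a multi-synthetase complex by the scaffold proteins AIMP1, AIMP2 and EEF1E1, whereas the mitochondrial enzymes are made in the cytosol and imported. When amino acids run short or the endoplasmic reticulum is stressed, the integrated stress response raises translation of the transcription factor ATF4, and genes for several cytosolic synthetases are among its known targets. The data therefore allow a comparison of cytosolic with mitochondrial enzymes in 2 measurements, the ribosome footprints on the CDS and the footprints beyond the stop codon.

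Per nucleotide of CDS, the cytosolic enzymes carried more footprints than the mitochondrial ones. The median CDS density of the 17 cytosolic members was 104 and 96.7 RPKM (RPM per kilobase) in Untreated A and B and 94.5 RPKM in G418. For the 12 mitochondrial members past the read minimum it was 17.9 and 21.6 RPKM untreated and 19.5 RPKM in G418. The 2 ranges met only at CARS, the lowest cytosolic member, which lay below RARS2 in all 3 libraries and below TARS2 in G418.

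Among cytosolic enzymes, NARS (asparagine) was densest, at 208 ± 25.3 RPKM untreated (mean ± SD, n = 2), followed by DARS (aspartate) at 158 ± 7.62 RPKM, IARS (isoleucine) at 151 ± 5.26 RPKM and RARS (arginine) at 146 ± 22.7 RPKM. NARS was above the other 3 in both untreated libraries, whereas DARS, IARS and RARS overlapped, with 163 and 152, 154 and 147, and 162 and 129.7 RPKM. CARS (cysteine) had 33.8 ± 0.622 RPKM and VARS (valine) 67.3 ± 4.04 RPKM. Among mitochondrial enzymes, RARS2 had 45.6 ± 6.08 RPKM and TARS2 (threonine) 31.6 ± 0.221 RPKM, and PARS2 (proline) was the least dense at 7.20 ± 0.835 RPKM. The untreated values of VARS2, 7.35 and 11.9 RPKM, and of CARS2, 16.4 and 26.0 RPKM, were, as ratios, the farthest apart of the members tested.

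**Figure D1:**
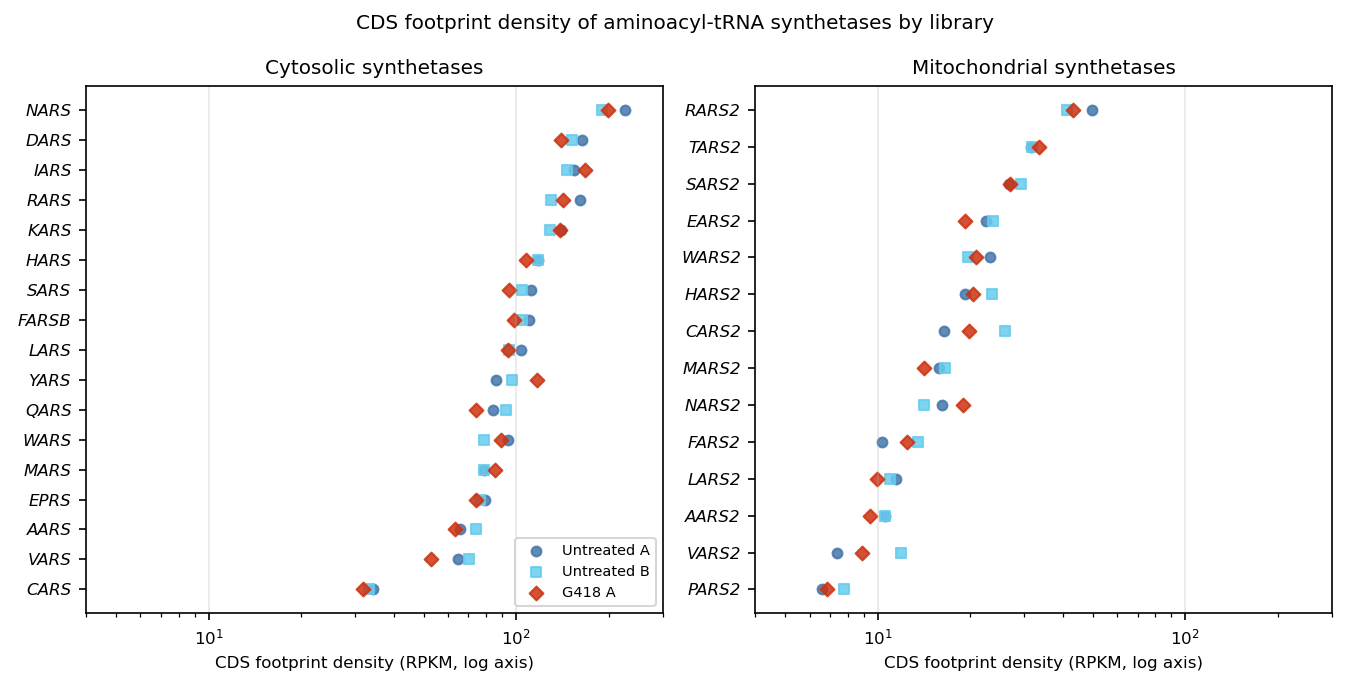
CDS footprint density of the 31 synthetases in RPKM on a log axis, 1 row per gene, with Untreated A as circles, Untreated B as squares and G418 A as diamonds. The cytosolic members sit between 31.8 and 225 RPKM and the mitochondrial ones between 6.61 and 49.9 RPKM, and the 3 libraries of a gene lie close together beside the distance between genes.

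The CDS footprints of the synthetases changed little with G418, in either compartment. No member passed an adjusted p of 0.05 in edgeR's quasi-likelihood test in either direction, where 1.94% of 5684 transcripts were called higher and 0.721% lower (110 and 41, or 173 and 33 when scaled by depth alone). DESeq2 called 0 of the 16 cytosolic members to which it gave an adjusted p, with 10 transcripts higher and 17 lower over the whole table. It gave none to CARS or to the 12 mitochondrial members and so could not call them. At an unadjusted p under 0.05 the test picked 1 member, VARS, as lower in G418 (5.51% of all transcripts were lower and 8.02% higher at that level). The median log2 change of CDS RPM, G418 over the untreated mean, was -0.07 for the cytosolic and -0.09 for the mitochondrial members, against 0.07 for all 5684 transcripts. No member changed by 0.5 or more on this scale.

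The difference between untreated libraries was of similar size. The median log2 ratio of Untreated B over Untreated A was -0.07 for the cytosolic and 0.04 for the mitochondrial members. The median absolute change with G418 was 0.13 for cytosolic members, beside 0.11 between the untreated libraries, and 0.11 for mitochondrial members, beside 0.16 between them. Over all transcripts it was 0.20, beside 0.18. The 2 measures are not quite alike: the change with G418 is over a mean of 2 libraries, the other is between single libraries.

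By position, the cytosolic members leaned lower: G418 lay below both untreated libraries for 10 of 17 cytosolic and 4 of 12 mitochondrial members, and 27.9% of all transcripts did so. It lay above both for 3 cytosolic (IARS, MARS and YARS) and 2 mitochondrial members (NARS2 and TARS2), where 46.3% of all transcripts did. After TMM scaling G418 was below both for 10 cytosolic and 5 mitochondrial members, beside 2056 of the 5684 transcripts, and above both for the same numbers, 3 and 2, beside 2110. With 2 libraries against 1, no permutation of samples can pass a threshold, so these counts are a description. Summed over the list, cytosolic CDS footprints were 4176 and 3989 RPM untreated and 3970 RPM in G418, and mitochondrial ones 443 and 464 RPM untreated and 434 RPM in G418. Cytosolic members rested on a median of 1626 CDS reads per library and the 14 mitochondrial members listed on 228.

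**Figure D2:**
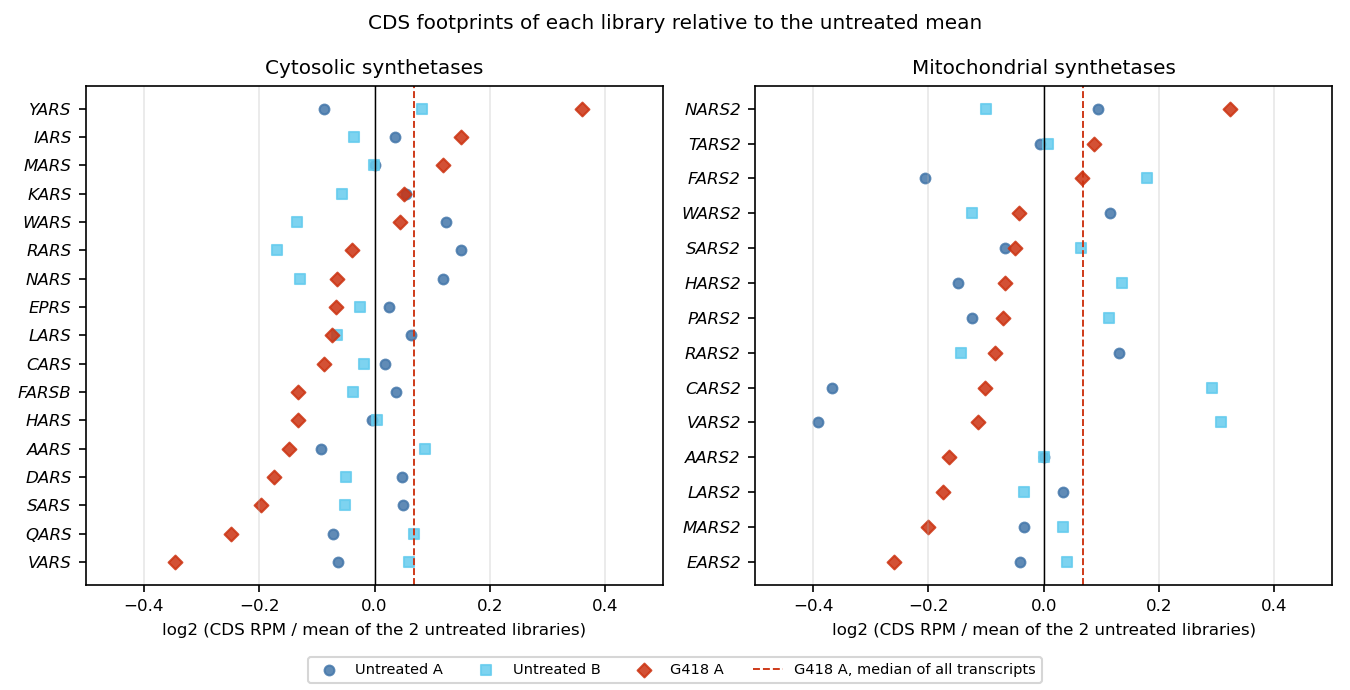
CDS RPM of each library relative to the mean of the 2 untreated libraries, on a log2 axis, 1 row per gene ordered by the G418 value, with the median of all transcripts in G418 (0.07) as a dashed line. YARS at 0.36 and NARS2 at 0.32 lie highest, VARS at -0.35 and EARS2 at -0.26 lowest, and the untreated values of CARS2 and VARS2 reach farther from 0 than any G418 value.

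Among the 8 members of the multi-synthetase complex the median log2 change was -0.05. IARS, the isoleucine enzyme, had 580 and 552 RPM untreated and 628 RPM in G418. G418 was the highest of its 3 libraries, with a log2 change of 0.15 and an adjusted p of 0.908. MARS, the methionine enzyme, had 211 and 210.4 RPM untreated and 229 RPM in G418, a log2 change of 0.12.

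QARS, the glutamine enzyme, lay on the other side, with 193 and 212 RPM untreated and 170.5 RPM in G418, a log2 change of -0.25 and an adjusted p of 0.458. DARS, the aspartate enzyme, had 240.4 and 225 RPM untreated and 206 RPM in G418, a log2 change of -0.17 and an adjusted p of 0.610. In both genes G418 was the lowest of the 3 libraries. EPRS, which joins glutamate and proline enzymes in a single chain, and LARS, the leucine enzyme, each had a log2 change of -0.07, also below both untreated libraries, though LARS in G418 (329.7 RPM) was close to Untreated B (331.5 RPM). KARS (lysine, in both compartments) and RARS lay between their untreated libraries, and the log2 change of KARS was 0.05 on RPM and -0.02 in the fit, which scales by TMM.

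The 9 cytosolic members outside the complex had a median log2 change of -0.13 and the 2 most changed genes of the family. VARS, the valine enzyme, had 243 and 264 RPM untreated and 199 RPM in G418. The G418 value was lower than both, with a log2 change of -0.35 and, in the fit, of -0.42 ± 0.18 (SE), an unadjusted p of 0.0231 and an adjusted p of 0.265. YARS, the tyrosine enzyme, had 134 and 150.2 RPM untreated and 182 RPM in G418. G418 was the highest library, with a log2 change of 0.36, 0.29 ± 0.18 in the fit, and an adjusted p of 0.516.

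SARS, the serine enzyme, had 169.5 and 158 RPM untreated and 143 RPM in G418, a log2 change of -0.20 and an adjusted p of 0.579. AARS (alanine), CARS, HARS (histidine) and FARSB, the beta chain of the phenylalanine enzyme, were also below both untreated libraries, with log2 changes from -0.15 to -0.09. NARS and WARS (tryptophan) lay between their untreated libraries, and the log2 change of WARS was 0.05 on RPM and -0.02 in the fit. By enzyme class, 10 class I cytosolic members, with the 2-class enzyme EPRS among them, had a median log2 change of -0.05 and 7 class II members of -0.13.

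The mitochondrial members had fewer reads and wider untreated pairs. NARS2, the asparagine enzyme, had 22.7 and 19.8 RPM untreated and 26.6 RPM in G418, a log2 change of 0.32 and an adjusted p of 0.811. EARS2, the glutamate enzyme, had 34.5 and 36.5 RPM untreated and 29.7 RPM in G418, a log2 change of -0.26 and an adjusted p of 0.678. In both genes G418 lay outside the untreated pair, on opposite sides.

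MARS2, the methionine enzyme, had 27.7 and 29.0 RPM untreated and 24.7 RPM in G418, a log2 change of -0.20. LARS2, the leucine enzyme, had 30.7 and 29.3 RPM untreated and 26.6 RPM in G418, a log2 change of -0.17. AARS2 was below both untreated libraries too, at a log2 change of -0.16, and TARS2 above both at 0.09. The other 6 members tested (CARS2, HARS2, RARS2, SARS2, VARS2 and WARS2) lay between their untreated libraries. CARS2 in G418 (32.8 RPM) and VARS2 in G418 (28.1 RPM) fell inside untreated pairs of 27.3 and 43.2 RPM and of 23.2 and 37.7 RPM. Below the read minimum, FARS2 (phenylalanine) had 13.7 and 17.8 RPM untreated and 16.5 RPM in G418, and PARS2 had 9.22 and 10.9 RPM untreated and 9.56 RPM in G418.

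Among proteins that work with the synthetases, those that take part in the delivery of charged tRNA moved in both directions. EEF1A1 and EEF1D fell by 0.5 or more on the log2 scale, whereas EEF1B2 and EEF1G lay above both untreated libraries. Of 17 genes listed as charging partners, 13 were tested, 0 were called higher and 1 lower. The gene called lower was EEF1A1, the elongation factor that carries charged tRNA to the ribosome, with 3494 and 3263 RPM untreated and 1877 RPM in G418. It fell by 0.85 on the log2 scale, with an adjusted p of 0.000492. EEF1A1 has many near-identical copies in the genome and multimapping reads were kept at a single position, so its count is less certain than that of the synthetases. EEF1D had 36.7 and 41.4 RPM untreated and 26.6 RPM in G418, below both, a log2 change of -0.55. The log2 changes of EEF1B2 and EEF1G were 0.04 and 0.14. The complex scaffolds AIMP1, AIMP2 and EEF1E1 lay between their untreated libraries, AIMP1 for instance at 76.8 and 83.5 RPM untreated and 80.0 RPM in G418. XPOT, which exports tRNA from the nucleus, had the highest log2 change of the list, 0.41, with 80.6 and 109 RPM untreated and 126 RPM in G418 and an adjusted p of 0.448.

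Other genes of the integrated stress response were spread more widely than the synthetases. For those tested, the median absolute log2 change was 0.29 with G418, beside 0.16 between the untreated libraries. Untreated B over Untreated A ran from -0.86 to 0.21 on the log2 scale. Of 37 listed, 19 were tested, 1 was called higher and 0 lower (1.94% and 0.721% of all transcripts). On RPM 12 lay above both untreated libraries and 6 below both, where 46.3% and 27.9% of all transcripts did, and after TMM scaling 9 lay above and 7 below. ATF4 had 22.9 and 20.9 RPM untreated and 29.0 RPM in G418, a log2 change of 0.40 and an adjusted p of 0.705. HERPUD1, a membrane protein of endoplasmic reticulum degradation, was the gene called, with 29.9 and 22.1 RPM untreated and 76.1 RPM in G418, a log2 change of 1.55 and an adjusted p of 3.29e-06. DESeq2 gave it no adjusted p. SHMT2, the mitochondrial serine hydroxymethyltransferase, was lowest, with 217 and 246 RPM untreated and 175 RPM in G418, a log2 change of -0.40 and an adjusted p of 0.173. The median log2 change of the list was 0.17, and the 17 cytosolic synthetases, at -0.07, lay below the median of all transcripts rather than above it.

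**Figure D3:**
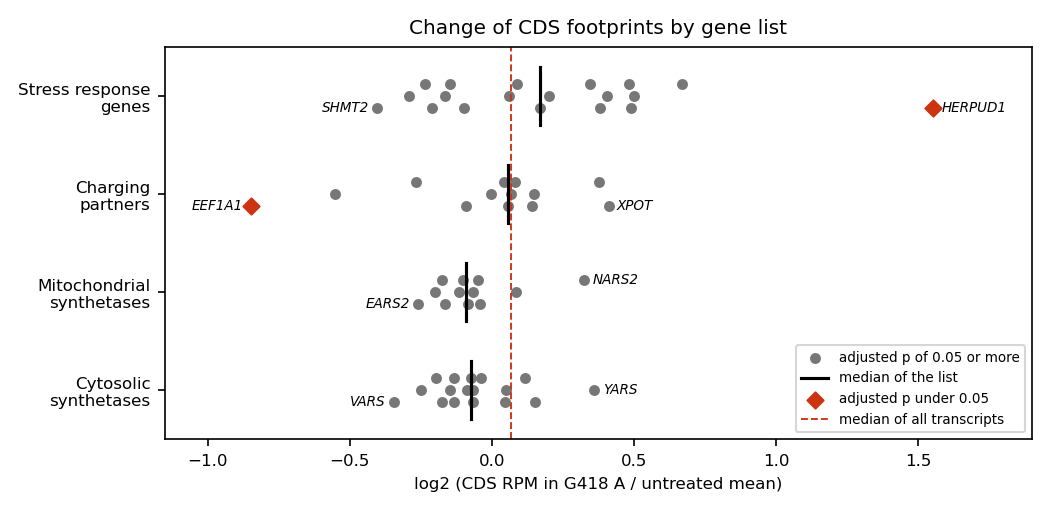
log2 change of CDS RPM in G418 over the untreated mean for each tested gene of the 4 lists, with list medians as bars, genes called by edgeR as diamonds and the median of all transcripts (0.07) as a dashed line. Both synthetase lists lie within -0.35 and 0.36 with no gene called, whereas the charging partners reach down to EEF1A1 at -0.85 and the stress response genes up to HERPUD1 at 1.55.

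ATF4 acts at composite elements of the form TGATGNAA, so the promoters were searched for these letters on both strands. RefSeq promoters (GRCh38.p14, 250 bases before to 50 after the start site) were matched for 25 of the 31 members. DARS, LARS, VARS, YARS, AARS2 and VARS2 were not matched. The letters were present in 5 of 13 cytosolic promoters (38.5%) and 0 of 12 mitochondrial ones, and in 3.62% of all 35116 promoters. The windows are shown because the motif, found without use of the footprints, is present in one set and not in the other; a match is no proof of a site. Each is 30 bases of the gene's own strand, 5′ to 3′, with the element in capitals; TTGCATCA is TGATGCAA on the opposite strand.
AARS (chr16:70289675-70289704, minus strand): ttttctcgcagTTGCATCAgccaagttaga
CARS (chr11:3057407-3057436, minus strand): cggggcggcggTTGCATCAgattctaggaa
IARS (chr9:92293692-92293721, minus strand): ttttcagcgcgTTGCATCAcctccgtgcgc
MARS (chr12:57488053-57488082, plus strand): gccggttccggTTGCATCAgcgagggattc
NARS (chr18:57621804-57621833, minus strand): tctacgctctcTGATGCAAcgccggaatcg

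All 5 windows carry the same core, TGATGCAA or its complement, although the search left the sixth base open. The element begins 187 bases before the start site in AARS, 13 before in IARS, 4 before in MARS, 2 before in CARS and at base 15 of the transcript in NARS. The genes that hold it did not move together: their log2 changes of CDS RPM ran from -0.15 to 0.15 with a median of -0.07, 2 of the 5 above both untreated libraries and 2 below both. The 8 matched cytosolic genes without it had a median of -0.10, with 0 above both and 5 below both.

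Footprints in 5′UTRs, where ribosomes on upstream open reading frames are counted, were a small share of the reads of synthetase transcripts. For cytosolic members they made up 0.678% and 0.864% of transcript reads in the untreated libraries (0.771% ± 0.132, SD, n = 2) and 0.529% in G418 (154 reads, Wilson 95% interval 0.452% to 0.620%). The G418 share was below both, though its interval overlapped that of Untreated A (0.583% to 0.788%). For mitochondrial members the shares were 1.26% and 0.967% untreated and 0.860% in G418, and for all transcripts 2.05% and 2.14% untreated and 1.83% in G418. IARS held more of the cytosolic 5′UTR reads than any other member, 60 of 167 and 83 of 330 untreated and 62 of 154 in G418. HERPUD1 and the other stress response genes together had shares of 5.92% and 5.19% untreated and 6.31% in G418.

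Beyond the stop codon, synthetase transcripts held few footprints without G418 and many with it, and relative to the CDS the mitochondrial members held more than the cytosolic ones. Readthrough was measured as the ribosome readthrough score (RRTS), the footprint density between the stop codon and the next in-frame stop as a share of the CDS density, and pooled by dividing the reads of a group by those its CDS densities would give. The 17 cytosolic members had 13 and 29 readthrough reads untreated and 217 in G418, a pooled RRTS of 1.31% and 1.94% untreated (1.63% ± 0.446, SD, n = 2) and 19.5% in G418 (exact Poisson 95% interval 17.0% to 22.3%). The 12 mitochondrial members had 2 and 0 reads untreated and 68 in G418, a pooled RRTS of 1.35% and 0% untreated (0.674% ± 0.953, SD, n = 2) and 37.1% in G418 (28.8% to 47.0%). All 5684 transcripts had 1.57% and 1.25% untreated and 21.3% in G418. With a minimum of 500 CDS reads, which leaves 2 mitochondrial members (RARS2 and TARS2), the mitochondrial value was 16.8%, below the cytosolic 19.5%. That value rests on 2 readthrough reads of RARS2 and 1 of TARS2, too few to show an order. These intervals cover counting error only, and the G418 value comes from 1 library.

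As a fold over the pooled untreated libraries, RRTS was 11.5 times higher in cytosolic members (95% interval 8.26 to 16.5), 74.1 times in mitochondrial members (19.7 to 624) and 15.6 times in all transcripts. Without LARS, which held 17 of the 29 cytosolic readthrough reads of Untreated B, the cytosolic fold was 19.4, and with readthrough regions of at least 60 nucleotides only it was 35.5. The mitochondrial fold rests on 2 untreated reads, both of CARS2 in Untreated A, and was 27.5 against Untreated A alone. Members with a readthrough read in G418 numbered 15 of 17 cytosolic and 10 of 12 mitochondrial, beside the 75.8% of all transcripts. RRTS was above both untreated libraries in 12 of 17 cytosolic and 10 of 12 mitochondrial members, where 72.0% of all transcripts were.

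**Figure D4:**
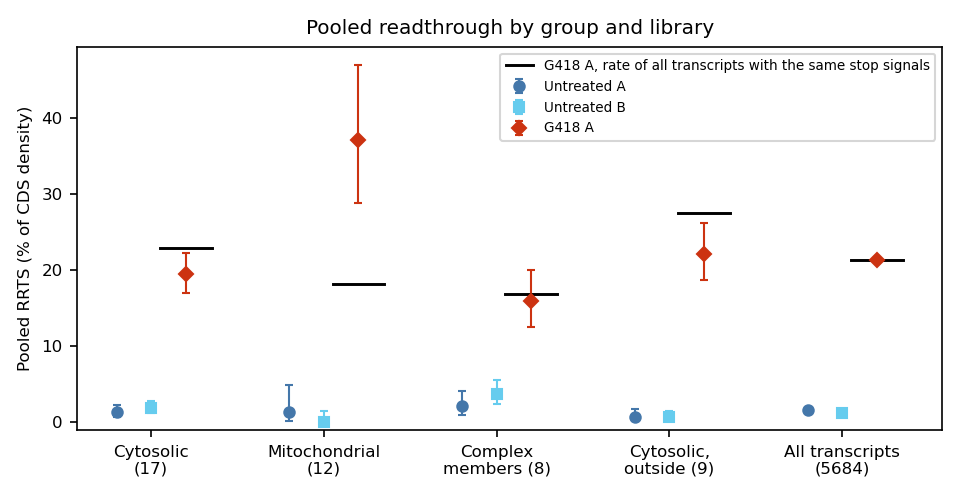
Pooled RRTS, in percent of CDS density, of the synthetase groups and of all transcripts in each library, with exact Poisson 95% intervals, and the G418 rate of all transcripts with the same 4-nucleotide stop signals as a bar. In G418 the mitochondrial members lie at 37.1% above their bar at 18.2%, the cytosolic ones at 19.5% below theirs at 22.9%. The complex members have untreated values of 2.17% and 3.72%, the latter with 17 of 23 reads on LARS.

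Stop codons differ in how readily they are read through, and the members were therefore set beside all transcripts with the same signal, the stop codon and the base after it. The cytosolic members ended in UGA (8), UAG (4) and UAA (5), and the mitochondrial ones in UGA (5), UAG (4) and UAA (3). At the G418 rate of all transcripts with their own 4-nucleotide signals, the cytosolic members would have 22.9% and the mitochondrial ones 18.2%. The cytosolic value, 19.5%, was below this and the mitochondrial value, 37.1%, above it. In each case the rate lay outside the Poisson interval of the group, though the cytosolic upper limit, 22.3%, was close to 22.9%. These intervals hold counting error only, without the spread between genes or between libraries, so this is a description and not a test.

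By stop codon, the mitochondrial members stood farthest from all transcripts at UAG. The 4 mitochondrial UAG members (NARS2, MARS2, EARS2 and WARS2) had 41 reads in G418 and a pooled RRTS of 63.2% (45.3% to 85.7%), where all UAG transcripts had 19.2%. The 5 mitochondrial UGA members had 37.5% (20.5% to 63.0%) beside 29.9% for all UGA transcripts, and the 3 UAA members 16.0% (8.51% to 27.3%) beside 12.2%. Cytosolic members had 24.3% at UGA, 19.3% at UAG and 15.2% at UAA. The 5 cytosolic UAA members had 5 and 18 reads untreated, 17 of the 18 on LARS, and 71 in G418.

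The stop codon windows of the members with the most readthrough reads in G418 are shown first, 4 cytosolic and 3 mitochondrial. With DARS, whose window is not shown, the cytosolic genes hold 168 of the 217 cytosolic reads, and the 3 mitochondrial genes hold 41 of the 68 mitochondrial reads. Each window holds 30 bases of the mRNA, 12 before the stop codon and 15 after it, read from GENCODE transcripts on hg38, with the stop codon in capitals and its position given. All 31 stop codons lie in the last exon of their transcript, and the bases after them are 3′UTR.
HARS (chr5:140674257-140674259, minus strand): ctctgcatctgcTGAactgaacaaactatc
NARS (chr18:57601652-57601654, minus strand): cgttgcacgccaTAAccattttctccagaa
SARS (chr1:109237886-109237888, plus strand): gtcaccgatgctTGAacattcctgcctccc
KARS (chr16:75627895-75627897, minus strand): ggcacttctgtcTAGaaaataataattgca
NARS2 (chr11:78436670-78436672, minus strand): tcatgccttttaTAGctggaagattggtta
SARS2 (chr19:38915606-38915608, minus strand): cctgctgtaagcTAAgaacccacccacagc
MARS2 (chr2:197707185-197707187, plus strand): gcccaccggaccTAGaaactcagttcttac

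HARS had the most readthrough reads, 1 and 1 untreated and 48 in G418. Its RRTS was 0.673% and 0.414% untreated and 28.7% in G418 (21.1% to 38.0%), which is 56.0 times the pooled untreated value (14.7 to 476). The G418 value stood far above both untreated ones and near the 32.8% of all UGAA transcripts. HARS and HARS2 are paralogs, and each multimapping read was kept at a single position, so some reads may belong to the other gene.

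SARS, with the same UGAA signal, had 0 and 0 reads untreated, which allow an RRTS of up to 2.46% and 1.63%, and 36 reads in G418, an RRTS of 28.4% (19.9% to 39.3%). The fold was at least 29.0, taking 3 reads as the limit over the 2 untreated libraries and the G418 reads as exact, and its lower 95% limit with counting error in both was 22.4. HARS and SARS thus had nearly the same RRTS at the same signal, on extensions of 73 and 63 codons to the next in-frame stop.

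NARS (UAAC) had 1 and 0 reads untreated and 37 in G418, an RRTS of 0.476% and 0% untreated and 16.3% in G418 (11.4% to 22.4%). KARS (UAGA) had 5 and 0 reads untreated and 31 in G418, an RRTS of 4.53% and 0% untreated and 22.9% in G418 (15.5% to 32.4%), 12.6 times the pooled untreated value (4.86 to 41.5). DARS (UAAA) had 0 reads in both untreated libraries and 16 in G418, an RRTS of 15.5% (8.89% to 25.3%) and a fold of at least 12.7 by the limit of 3 reads (lower 95% limit 9.18). The intervals of all 3 held the rate of their own signals, 20.5%, 20.4% and 11.0%.

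Among mitochondrial members, NARS2 (UAGC) had 0 reads in both untreated libraries, which allow up to 14.8% and 10.5%, and 20 reads in G418, an RRTS of 68.5% (41.9% to 106%) where all UAGC transcripts had 25.7%. MARS2 (UAGA) had 0 and 0 reads untreated and 10 in G418, an RRTS of 71.2% (34.1% to 131%) where all UAGA transcripts had 20.4%. SARS2 (UAAG), whose 3′UTR holds no in-frame stop, had 0 and 0 reads untreated and 11 in G418, an RRTS of 17.2% (8.59% to 30.8%) where all UAAG transcripts had 8.56%. In each of the 3 the interval lay above the rate of its signal, if only just in SARS2. These 3 were chosen for the most readthrough reads in G418, which favours such a result, so it is no test. Their folds over the untreated libraries were at least 11.1, 8.18 and 8.15 by the limit of 3 reads. The lower 95% limits of the folds were 8.25, 5.50 and 5.58.

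**Figure D5:**
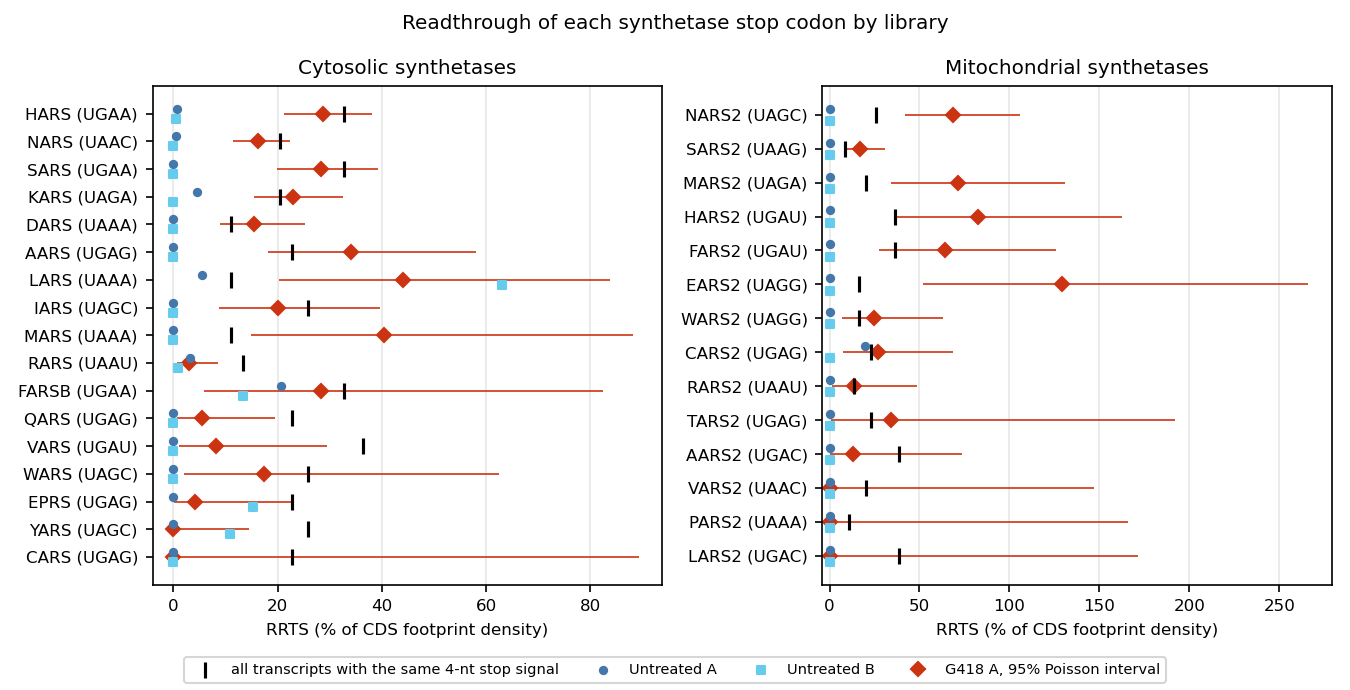
RRTS of each synthetase in percent of its CDS density, with Untreated A as circles, Untreated B as squares, G418 A as diamonds with exact Poisson 95% intervals, and the G418 rate of all transcripts with the same 4-nucleotide stop signal as a vertical mark, genes ordered by readthrough reads in G418. The UGAA genes HARS and SARS lie close to 28.7% and 28.4%, RARS, QARS, VARS and YARS lie below their marks, and LARS in Untreated B (63.1%) lies above its G418 value (44.1%).

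Other members had G418 intervals wholly below or above the rate of their signal. The windows of 7 of them, chosen after their values were seen, follow for comparison with those above.
RARS (chr5:168519188-168519190, plus strand): gtccaaaggatgTAAtccttcataggtttg
QARS (chr3:49096029-49096031, minus strand): ccaggaaaggtgTGAgctggaagcactgaa
VARS (chr6:31777594-31777596, minus strand): cagaagatgctgTGAtccaccacccagctt
YARS (chr1:32775981-32775983, minus strand): gggaacattagcTAGccagcccagcatctt
LARS (chr5:146114106-146114108, minus strand): tatctggttcatTAAactcatgcacattgg
MARS (chr12:57516579-57516581, plus strand): aagaagaaaaagTAAaagaccttggctcat
EARS2 (chr16:23524371-23524373, minus strand): gtggtttccagcTAGggagaggatgtttcg

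The G418 interval of RRTS lay below the rate of the signal in 4 cytosolic members and in 0 mitochondrial ones. For most mitochondrial members too few reads were expected at that rate for any count to put the interval below it. LARS2, for instance, would hold 0.832 reads and VARS2 0.514. The counts of the 2 compartments therefore cannot be compared. RARS (UAAU), whose 3′UTR holds no in-frame stop, had 3 and 1 reads untreated and 3 in G418, an RRTS of 3.20% and 0.821% untreated and 2.96% in G418 (0.610% to 8.64%), where all UAAU transcripts had 13.3%. The G418 value lay between the untreated ones. QARS (UGAG) had 0 and 0 reads untreated and 2 in G418, an RRTS of 5.41% (0.655% to 19.5%) beside 22.8%. VARS (UGAU) had 0 and 0 reads untreated and 2 in G418, an RRTS of 8.17% (0.989% to 29.5%) beside 36.4%. YARS (UAGC) had 0 and 3 reads untreated and 0 in G418, which allows up to 11.8%, beside 25.7%. In YARS, 15 reads fell in the 3′UTR in G418 with none before the next in-frame stop. The other genes offer no comparison. RARS and VARS have no in-frame stop, so their region is the whole 3′UTR, and that of QARS takes 75 of 91 nucleotides.

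The interval lay above the rate in 2 cytosolic members, LARS and MARS, and in 4 mitochondrial ones, NARS2, MARS2, SARS2 and EARS2. The share of all transcripts whose interval lies below or above the rate of its signal was not computed. These counts are therefore a description and do not set the members apart from other transcripts. MARS (UAAA) had 0 and 0 reads untreated and 6 in G418, an RRTS of 40.5% (14.9% to 88.1%). LARS (UAAA) had 1 and 17 reads untreated and 9 in G418, an RRTS of 5.49%, 63.1% and 44.1%. Untreated B thus exceeded the G418 library, and no effect of G418 can be read from LARS. EARS2 (UAGG) had 0 and 0 reads untreated and 7 in G418 over a region of 45 nucleotides, an RRTS of 129% (51.9% to 266%), above its own CDS density.

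Of the remaining cytosolic members, AARS (UGAG) had 0 and 0 reads untreated and 13 in G418, an RRTS of 34.0% (18.1% to 58.1%), and IARS (UAGC) 0, 0 and 8 reads, an RRTS of 20.1% (8.68% to 39.6%). EPRS (UGAG) had 0 and 5 reads untreated and 1 in G418, an RRTS of 0%, 15.3% and 4.14%, with G418 between the untreated values. FARSB had 2, 2 and 3 reads, WARS 0, 0 and 2, and CARS none in any library, over a region of 24 nucleotides that allows an RRTS of up to 72.6% in G418.

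Of the other mitochondrial members, HARS2 (UGAU) had 0, 0 and 8 reads and an RRTS of 82.4% in G418 (35.6% to 162%), CARS2 2, 0 and 4 reads, WARS2 0, 0 and 4, RARS2 0, 0 and 2, and AARS2 and TARS2 0, 0 and 1. LARS2 and VARS2 had none in any library, which allows values of up to 139.5% and 119.7% in G418. Below the read minimum, FARS2 had 0, 0 and 8 reads and an RRTS of 64.0% (27.6% to 126%), and PARS2 none.

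The region searched for readthrough differed between the groups, with a median of 70 nucleotides for the cytosolic and 91.5 for the mitochondrial members, and 66 for all transcripts. The part of region length, 3′UTR length and read depth in the difference between compartments was not tested.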

How the data were processed

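Ribosome footprints were measured in 2 untreated libraries and 1 G418 library of HEK293T cells. Per the study's methods, the authors removed duplicate reads by their molecular identifiers, aligned them with STAR to hg38 (base calls from CASAVA 1.8 per the labels), kept multimapping reads at a single alignment and assigned footprints of 28 to 35 nucleotides to 1 transcript per gene of GENCODE version 30. CDS densities leave out the first 18 and last 15 nucleotides of the CDS, and readthrough densities the first 6 nucleotides after the stop codon. The deposited tables hold, per transcript, whole-number CDS read counts, RPM (scaled to each library's assigned reads), CDS RPKM and the ratio RRTS. They list transcripts from a CDS density of about 1 RPKM (lowest value 1.0003).

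All nonzero RPM values were whole multiples of 1 read to within 0.01, so reads and library totals were recovered from them. The deposited CDS counts were 1 below the recovered reads in 9080 transcripts of Untreated A, 283 of Untreated B and 72 of G418 A; the deposited counts were tested and the recovered reads gave RRTS. Tables were joined by transcript (8812), and the 5684 whose CDS reads averaged 128 or more were tested with edgeR 4.0.16 (R 4.3.3; quasi-likelihood, TMM, Benjamini-Hochberg over all 5684), with DESeq2 1.42.0 as an alternative. The fit takes its spread from the 2 untreated libraries and assumes that the G418 library varies like them. That spread was moderated wholly to the trend over all transcripts, so the SE of a member does not reflect its own untreated pair. CARS2, with untreated values far apart, had an SE of 0.278, and AARS2, with nearly equal ones, 0.293. The study's text calls its libraries biological replicates. log2 changes are of RPM with no pseudocount. Pooled RRTS needs a readthrough region of at least 18 nucleotides. Poisson intervals and the limit of 3 reads for a count of 0 cover counting error only.

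Members and gene lists were chosen with earlier results of these data known. Every member is named. Full values are given for the 6 cytosolic and 4 mitochondrial members with the largest change of CDS RPM and the 5 and 3 with the most readthrough reads in G418. In the other 2 lists they are given for genes called, the highest, the lowest and ATF4. EEF1D, EEF1B2 and EEF1G were added after their values were seen. Stop codon windows come from GENCODE version 44 transcripts on hg38, where the stop signal matched for all 31 members (HARS and EARS2 through another transcript of the gene with the same signal and region). The region matched too, except in RARS, VARS, SARS2 and FARS2. These have no in-frame stop in either version, and the region found was longer, 111 nucleotides beside 105 in RARS for instance. 1 stop codon window is not reported here. No explanation was tested.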

Additional observations from a re-analysis of the deposited data

How the results depend on the processing

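No member was called in either direction under any of the alternatives run: median-of-ratios size factors, scaling by depth alone, DESeq2, read minimums of 20, 500 or none beyond being listed, recovered reads, and, for cytosolic members, KARS left out of the cytosolic list (GARS was not analysed here). DESeq2 gave no adjusted p to the 12 mitochondrial members or CARS, so it bears only on the other 16. Over all transcripts, where edgeR called 110 higher and 41 lower, depth scaling alone called 173 higher, DESeq2 10 higher and 17 lower, and a minimum of 500 CDS reads 21 higher and 12 lower. With TMM-scaled reads the median log2 change was -0.15 for cytosolic and -0.16 for mitochondrial members. At 500 CDS reads, which leaves 2 mitochondrial members, their median was 0.0013, of the opposite sign. Their pooled RRTS in G418 was 16.8%, below the cytosolic 19.5%, on 2 readthrough reads of RARS2 and 1 of TARS2. Against Untreated A or Untreated B alone the median ran from -0.13 to -0.04 for cytosolic members and, for mitochondrial members, from -0.15 to -0.069, the sign of single members changed in 4 (NARS, RARS, RARS2 and WARS2, without Untreated A) and 6 (CARS2, HARS2, KARS, SARS2, VARS2 and WARS, without Untreated B) of 29, and the cytosolic RRTS fold ran from 10.0 to 14.9. With readthrough regions of at least 60 nucleotides the untreated cytosolic RRTS was 0.649% and its fold 35.5; without LARS, an alternative chosen after seeing the data, they were 1.03% and 19.4. Without NARS2 the mitochondrial RRTS in G418 was 31.1%, and without HARS the cytosolic one was 17.9%. The cause of these shifts was not tested. No paired analysis was possible because only the letter A is shared between the groups. With 1 G418 library the spread of treated cells is unknown, and the readthrough values of most mitochondrial members rest on fewer than 12 reads.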
